A study of Mus musculus with 4 samples.

Results

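Transcripts of the receptors through which group 2 innate lymphoid cells (ILC2) sense alarmins and common gamma-chain cytokines were followed in 4 RNA-seq libraries of ILC2 sorted from mouse adipose tissue. The set was defined by name as 8 genes, of which 7 had a row among the 10941 genes of the count table: Il1rl1, Il1rap, Il7r, Il2ra, Il2rg, Il17rb and Il18r1. Crlf2, which encodes the receptor for thymic stromal lymphopoietin, was not analysed here. All the mice carried Il5RFP-cre (R5/+), a Cre recombinase at the Il5 locus, which acts only in cells that have transcribed Il5. The study compared R5/+ mice with floxed Rptor alleles (Rptorf/f, the knockout of Raptor, which mTORC1 kinase signalling requires) with R5/+ mice of wild-type Rptor. By library name there were 2 WT and 2 KO libraries, but the titles give Rptorf/f for the samples named WT and Rptor+/+ for those named KO. The groups are therefore called WT-named and KO-named, and every direction is KO-named minus WT-named. For age, sex, the sort gate and the number of animals behind a library, nothing is given in the sources used here.

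ILC2 carry no antigen receptor and are switched on by cytokines of the tissue. Interleukin-33, released by damaged stromal cells, binds ST2 (Il1rl1), which signals only together with the accessory chain Il1rap through MyD88. Interleukin-25 binds Il17rb, which pairs with Il17ra, and interleukin-18 binds Il18r1, which pairs with Il18rap. Interleukin-7 and interleukin-2 bind Il7r and Il2ra, and both receptors signal through the common gamma chain Il2rg to JAK1, JAK3 and STAT5. Il7r also serves as a chain of the receptor for thymic stromal lymphopoietin.

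All 7 genes had an entry in the RefSeq promoter set (GRCm38.p6, 250 bases before to 50 after an annotated start). Those shown are the pair of Il1rl1 starts in the set, called upstream and downstream here, which lie 10059 bases apart. The RefSeq range of Il1rl1, the ST2 gene, begins further upstream, at 40404864, where the set has no window. Also shown are the starts of Il17rb and Il1rap, the members with the largest positive and negative fitted change. Capitals mark GATAA (the GATA-factor core), TTCNNNGAA (the STAT core) and AGGTCA (a nuclear receptor half-site), searched on both strands, so that GATAA on the other strand reads TTATC. No matches overlap in the windows shown.
Il1rl1, upstream start, chr1:40429320-40429619, plus strand: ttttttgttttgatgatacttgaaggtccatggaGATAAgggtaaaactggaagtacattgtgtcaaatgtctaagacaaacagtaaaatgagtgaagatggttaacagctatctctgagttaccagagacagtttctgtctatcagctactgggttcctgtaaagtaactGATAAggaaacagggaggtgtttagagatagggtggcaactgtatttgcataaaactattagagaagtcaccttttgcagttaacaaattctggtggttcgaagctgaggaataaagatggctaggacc
Il1rl1, downstream start, chr1:40439379-40439678, plus strand: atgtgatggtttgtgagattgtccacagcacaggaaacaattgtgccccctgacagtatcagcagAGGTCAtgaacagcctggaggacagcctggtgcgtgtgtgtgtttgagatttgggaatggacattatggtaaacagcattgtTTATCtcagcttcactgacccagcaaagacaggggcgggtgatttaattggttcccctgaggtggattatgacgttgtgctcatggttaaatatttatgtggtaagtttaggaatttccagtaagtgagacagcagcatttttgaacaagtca
Il17rb, chr14:30008847-30009146, minus strand: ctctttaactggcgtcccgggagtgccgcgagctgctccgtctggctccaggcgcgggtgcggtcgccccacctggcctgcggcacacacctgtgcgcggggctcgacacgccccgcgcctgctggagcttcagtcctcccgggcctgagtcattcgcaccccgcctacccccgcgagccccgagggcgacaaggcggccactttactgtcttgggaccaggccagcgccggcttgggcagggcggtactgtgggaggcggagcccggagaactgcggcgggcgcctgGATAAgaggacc
Il1rap, chr16:26581455-26581754, plus strand: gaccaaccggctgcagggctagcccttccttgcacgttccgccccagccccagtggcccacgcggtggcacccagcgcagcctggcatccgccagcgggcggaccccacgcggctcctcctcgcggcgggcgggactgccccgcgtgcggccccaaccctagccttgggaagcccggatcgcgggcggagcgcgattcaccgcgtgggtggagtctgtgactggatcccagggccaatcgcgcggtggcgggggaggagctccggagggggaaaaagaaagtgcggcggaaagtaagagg
GATAA was found at 2 of the 7 genes, Il1rl1 (2 matches upstream, 1 downstream) and Il17rb (1 match). It occurs in 25.4% of the 32851 promoter windows of the set. Such shares are over windows, and Il1rl1 and Il18r1 have several windows each. They are therefore not directly comparable with a count over genes. TTCNNNGAA was found at Il18r1 and Il7r and occurs in 8.30% of windows. AGGTCA was found at the downstream start of Il1rl1 alone among the 7 and occurs in 16.3% of windows. The Il1rap window holds none of the 3. A match is a string of letters in this window, and the data do not show which start was used.

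Depth was 15258780 to 18856218 counts per library. Fewer genes reached 100 counts in the KO-named libraries (5398 in replicate 1, 6134 in replicate 3) than in the WT-named ones (7338 and 6585), whereas more genes had a count above 0 (10826 and 10668 against 10255 and 10294). Rptor, the targeted gene, had 14.5 and 76.8 CPM (read counts relative to library total, scaled by the TMM method) in WT-named replicates 1 and 3 and 0.971 and 33.9 CPM in KO-named replicates 1 and 3, so the groups overlapped and it did not settle which label is right (log2 fold change −1.39, SE 1.80, edgeR adjusted p = 0.906). All 14 ILC2 markers were listed, led by the transcription factors Rora, at 3510 to 4907 CPM, and Id2, at 2061 to 3634 CPM. Zbtb16, Il13 and Il5 were named after their values were seen. Zbtb16 stayed at or below 0.822 CPM. Il13 was at 19.3 and 8.80 CPM for the WT-named pair against 1.87 and 12.3 CPM for the KO-named pair, and overlapped. Il5 was at 542.2 and 321.0 CPM against 86.6 and 177.1 CPM (edgeR adjusted p = 0.433). Both KO-named libraries were above both WT-named ones in 4 of the 14 (17.8% of all genes) and below in 4 (22.1%). Of 15 mast cell markers 14 were listed as well, with none at 0. The summed level of these mast cell markers was 8777 and 7199 CPM for the WT-named pair against 11377 and 9107 CPM for the KO-named pair. They were led by the proteases Cpa3, at 2981.4 to 4042.7 CPM, and Cma1, at 1319.5 to 3216.1 CPM. Mast cells also carry ST2, and the part of these cells in the receptor values was not tested. Of 8 fibroblast markers, 2 were listed. Their summed level was 824.1 CPM in KO-named replicate 1 and at most 7.58 CPM in the other libraries.

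Per length, Il7r and Il1rl1 were the most abundant of the receptors and Il1rap the least. Levels were taken as CPM per kilobase of the longest annotated transcript, averaged over the 4 libraries. Among the 10619 genes with such a length, Il7r ranked 162 at 492.0 CPM per kb, Il1rl1 ranked 182 at 431.8 and Il2rg ranked 283 at 264.6. Il2ra ranked 337 at 213.2 CPM per kb, Il17rb ranked 1444 at 36.6, Il18r1 ranked 3013 at 14.2 and Il1rap ranked 5131 at 5.34. Neighbours in that order were not always separated. In KO-named replicate 1 Il1rl1 (554.8 CPM per kb) stood above Il7r (371.9), and Il2ra (192.6) above Il2rg (75.7). In WT-named replicate 3 Il1rap (11.4 CPM per kb) stood above Il18r1 (4.63). In every library the interleukin-7 receptor chain and ST2 exceeded Il17rb, Il18r1 and Il1rap per length.

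**Figure D1:**
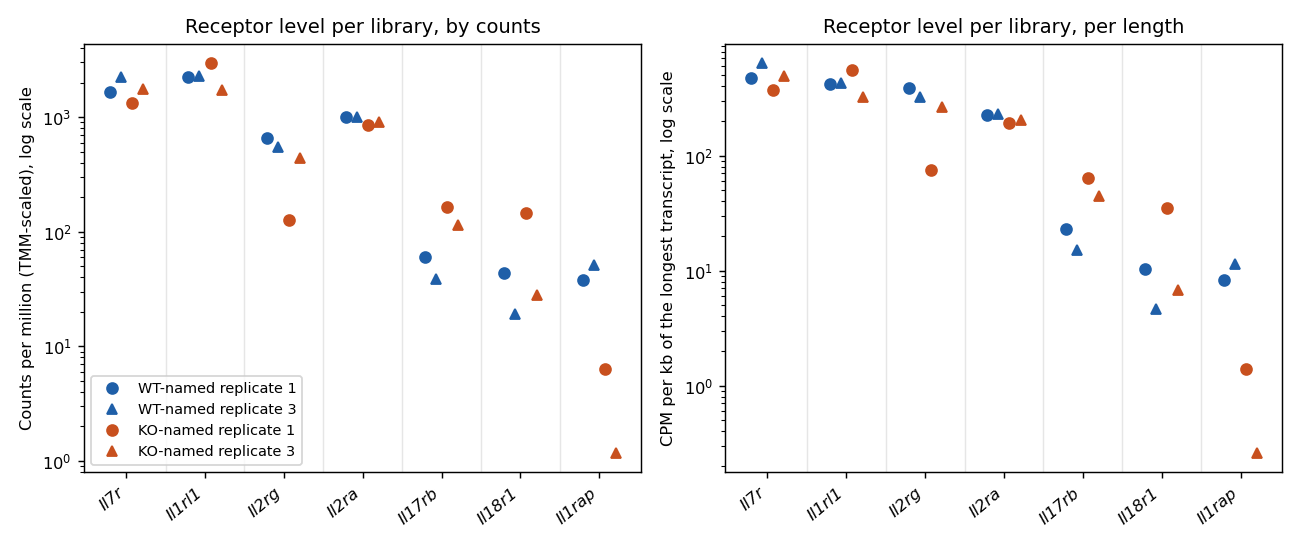
Level of the 7 receptor genes in each library, as TMM-scaled CPM (left, log axis) and as CPM per kb of the longest annotated transcript (right, log axis), with 1 point per library, WT-named in blue and KO-named in orange. Il1rap is at 37.7 and 51.4 CPM for the WT-named pair against 6.35 and 1.17 CPM in the KO-named pair, whereas the points of Il2ra lie within 849.6 to 1008.5 CPM.

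By edgeR's quasi-likelihood test over 8753 genes, with Benjamini-Hochberg adjustment at 0.05, 0 of the 7 receptors and 0 genes in all (0%) passed. At an unadjusted p under 0.05 edgeR counted 0 of the 7 and 9.81% of all genes. DESeq2 called 0 of the 7 at an adjusted p of 0.05, against 9.85% of the genes it tested. limma-voom had 2 of the 7, Il1rap and Il2rg, at an unadjusted p under 0.05, against 12.2% of all genes. The groups did not overlap in 4 of the 7, compared with 39.8% of all genes tested. Of these, Il17rb was the 1 gene with both KO-named libraries above both WT-named ones (17.8% of all genes), and Il1rap, Il2rg and Il2ra had both below (22.1% of all genes). With 2 libraries per group the smallest p an exact permutation test allows is 0.333. In sorted bulk RNA, fewer cells of a type and less RNA per cell cannot be told apart.

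Among the alarmin receptors, Il1rl1 (Entrez 17082, chromosome 1, 40404864 to 40465418, mm10) encodes ST2, the chain that binds interleukin-33. It was at 2221 and 2285 CPM in WT-named replicates 1 and 3 and at 2942 and 1709 CPM in KO-named replicates 1 and 3. The KO-named libraries lay on either side of the WT-named ones, so the groups overlapped. The means were 2253 CPM ± 45.2 and 2326 CPM ± 871.4 (SD, n = 2 each), and the log2 fold change was 0.05 (SE 0.35, edgeR adjusted p = 0.988). Its sign turned with the scaling, to −0.29 with library size alone. The counts do not separate the transcripts of membrane and soluble ST2, both made from this gene.

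Il1rap (Entrez 16180, chromosome 16, 26581509 to 26730128), the accessory chain without which ST2 does not signal, had 820 and 958 counts in the WT-named libraries and 85 and 20 in the KO-named ones. In CPM these were 37.7 and 51.4, and 6.35 and 1.17. Both KO-named libraries were far below both WT-named ones, and they also differed from each other several-fold. The mean was 44.5 CPM ± 9.70 for the WT-named against 3.76 CPM ± 3.66 for the KO-named pair (SD, n = 2 each), 11.8-fold lower. The fitted log2 fold change was −3.57 (SE 1.84) and did not pass (edgeR adjusted p = 0.605, unadjusted p = 0.0803, DESeq2 adjusted p = 0.0654). Of the 8753 genes tested, 790 had a more negative value. The log2 fold change was −5.23 without KO-named replicate 1 and −2.83 without KO-named replicate 3. DESeq2 called the gene in both of those fits, where it called 11.5% and 20.5% of all genes. Those fits left a lone KO-named library and took its spread from the WT-named pair. DESeq2 did not call Il1rap without WT-named replicate 1 or without WT-named replicate 3, at log2 fold changes of −3.96 and −3.38. The calls therefore depended on which library was left out.

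Il17rb (Entrez 50905, chromosome 14, 29996168 to 30008896), the chain that binds interleukin-25, was at 59.8 and 39.1 CPM in WT-named replicates 1 and 3 and at 163.6 and 114.8 CPM in KO-named replicates 1 and 3. The KO-named pair lay wholly above the WT-named pair. The mean was 49.4 CPM ± 14.7 for the WT-named against 139.2 CPM ± 34.6 for the KO-named pair (SD, n = 2 each), 2.82-fold higher. Its fitted log2 fold change was 1.49 with an SE of 0.80, which did not pass (edgeR adjusted p = 0.623). It lay between 1.23 and 1.81 when any 1 library was left out. Of the 14 mast cell markers tested, 5 had both KO-named libraries above both WT-named ones, 3 had both below and the rest overlapped. Over all genes tested the shares were 17.8% above and 22.1% below. The part of mast cells in the Il17rb values was not tested.

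Il18r1 (Entrez 16182, chromosome 1, 40465552 to 40500854), the chain that binds interleukin-18, was at 43.4 and 19.3 CPM in WT-named replicates 1 and 3 and at 145.5 and 28.0 CPM in KO-named replicates 1 and 3. KO-named replicate 1 stood alone above the rest, and the other 3 libraries overlapped. The fitted log2 fold change was 1.47 with an SE of 1.17 (edgeR adjusted p = 0.810), and it became −0.14 without KO-named replicate 1, which is also the library with the fibroblast transcripts. It was 2.14 without WT-named replicate 1 and 2.21 without KO-named replicate 3. Whether the fibroblast RNA had a part in it was not tested.

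Among the gamma-chain cytokine receptors, Il7r (Entrez 16197, chromosome 15, 9506159 to 9529941) encodes the interleukin-7 receptor alpha chain, on which ILC depend for survival. It was at 1661 and 2241 CPM in WT-named replicates 1 and 3 and at 1317 and 1747 CPM in KO-named replicates 1 and 3, and the groups overlapped. The log2 fold change was −0.35 (SE 0.34, edgeR adjusted p = 0.867), and −0.036 without WT-named replicate 3.

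Il2ra (Entrez 16184, chromosome 2, 11642792 to 11693194), the high-affinity interleukin-2 receptor chain, varied least of the 7. It was at 997.1 and 1008.5 CPM in WT-named replicates 1 and 3 and at 849.6 and 907.5 CPM in KO-named replicates 1 and 3, a range of 1.19-fold over the libraries. The groups did not overlap, but the difference was small, at −0.19 on the log2 scale with an SE of 0.35 (edgeR adjusted p = 0.943). Il2ra also marks regulatory T cells. Of the 4 T cell markers listed, Cd3g, a chain of the T cell receptor complex, was at 235.7 and 97.5 CPM for the WT-named pair against 158.6 and 101.1 CPM for the KO-named pair and overlapped, as did Ikzf2. Cd3e, another chain of that complex, was at 6.02 and 11.9 CPM in the WT-named pair and without a read in the KO-named pair, and Cd8b1 was at most 1.57 CPM. The part of T cells in the Il2ra values was not tested.

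Il2rg (Entrez 16186, chromosome X, 101264385 to 101268255), the common gamma chain, was at 653.4 and 543.7 CPM in WT-named replicates 1 and 3 and at 126.4 and 444.4 CPM in KO-named replicates 1 and 3. Both KO-named libraries lay below both WT-named ones, and KO-named replicate 1 was the lowest by far. The means were 598.5 CPM ± 77.6 and 285.4 CPM ± 224.9 (SD, n = 2 each), 2.10-fold lower. The log2 fold change was −1.07 (SE 0.57, edgeR adjusted p = 0.620). It was −0.42 without KO-named replicate 1 and −2.25 without KO-named replicate 3. The latter fit keeps only the library with the lowest Il2rg as the KO-named group.

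**Figure D2:**
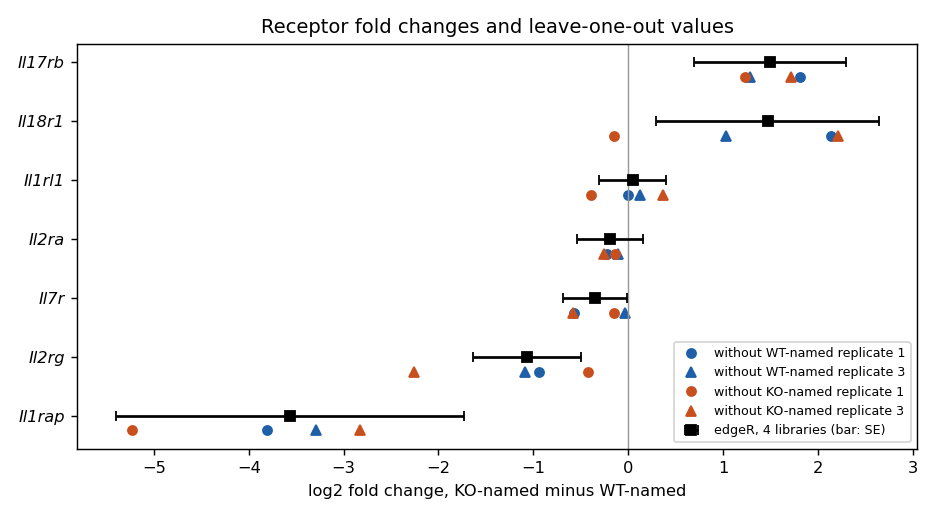
Log2 fold change of each receptor gene, KO-named minus WT-named, by edgeR with 4 libraries (squares, bars are 1 SE) and with each library left out in turn (coloured points, drawn just under each square). Il1rap is below 0 and Il17rb above 0 in all of these fits, whereas Il18r1 and Il1rl1 cross 0.

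The authors' deposited table holds their own DESeq2 comparison, whose sign is KO minus WT in all 456 genes with a q-value under 0.05 (4.17% of 10940 genes). In the authors' deposited table Il1rap was the 1 receptor of the 7 under that threshold, with a log2 fold change of −4.49 and a q-value of 0.00665. The log2 fold changes in the authors' deposited table were 0.91 for Il17rb, 0.26 for Il18r1, 0.089 for Il2ra, −0.10 for Il1rl1, −0.21 for Il7r and −0.30 for Il2rg, each with a q-value of 0.995. For Il2ra that sign is the opposite of the one fitted here to the 4 libraries, and for Il1rl1 as well. The libraries that entered the authors' deposited table are not stated.

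Ratios of subunits within a library do not depend on how libraries are scaled, and were computed after the values were seen. The ratio of Il1rl1 to Il1rap counts was 58.9 and 44.5 in WT-named replicates 1 and 3 and 463.4 and 1457 in KO-named replicates 1 and 3. Per kb it was 50.2 and 37.9 against 395.0 and 1242. The excess of ST2 transcripts over the accessory chain was thus larger in both KO-named libraries. The ratio of Il17rb to its partner Il17ra was also higher in both KO-named libraries. By counts it was 1.62 and 0.567 in the WT-named and 365.2 and 5.16 in the KO-named libraries. Per kb it was 4.88 and 1.71 against 1099 and 15.5. The value in KO-named replicate 1 rests on 6 Il17ra counts. The ratio of Il18r1 to Il18rap was 0.131 and 0.0796 in the WT-named and 0.589 and 0.389 in the KO-named libraries. The count ratio of Il2ra to Il2rg was 1.53 and 1.86 against 6.72 and 2.04. These groups did not overlap, but KO-named replicate 3 lay close to the WT-named pair. That of Il7r to Il2rg, at 2.54 and 4.12 against 10.4 and 3.93, overlapped. That of Il2ra to Il2rb also overlapped, at 3.22 and 3.70 against 1.56 and 4.90, with KO-named replicate 1 the lowest. No test was run on these ratios.

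**Figure D3:**
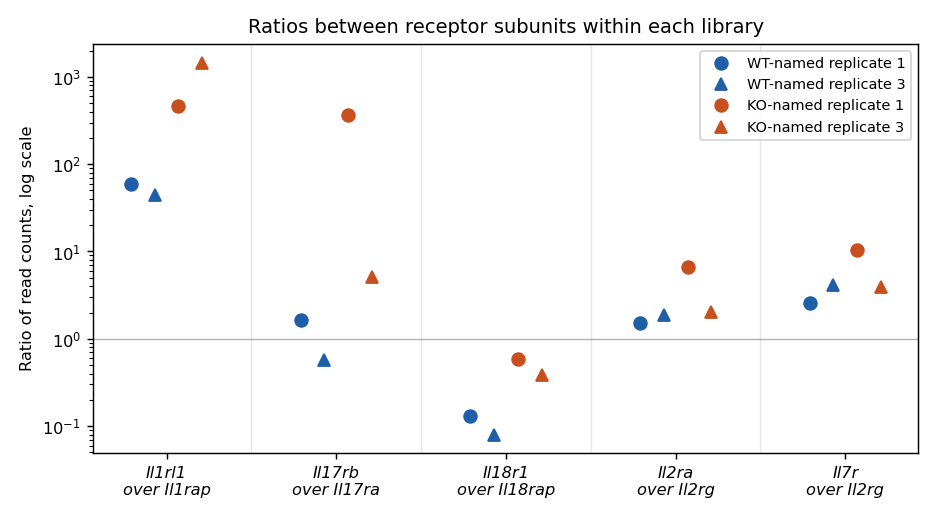
Ratio of read counts between paired receptor subunits within each library (log axis), with 1 point per library, WT-named in blue and KO-named in orange. Il1rl1 over Il1rap is 58.9 and 44.5 in the WT-named and 463.4 and 1457 in the KO-named libraries, and the points of Il7r over Il2rg overlap.

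The genes that neighbour Il1rl1 and Il18r1 belong to the same receptor family. Il1r2, Il1r1, Il1rl2, Il1rl1, Il18r1 and Il18rap lie in this order within 467.0 kb of chromosome 1, and Il18r1 starts 134 bases beyond the end of Il1rl1. Il18rap, the partner of Il18r1, was at 331.5 and 242.1 CPM in WT-named replicates 1 and 3 and at 246.8 and 72.1 CPM in KO-named replicates 1 and 3 (log2 fold change −0.85, SE 0.64, edgeR adjusted p = 0.780). Il1rl2, the interleukin-36 receptor chain, was at 15.6 and 26.3 CPM against 19.5 and 0 CPM.

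Other receptor genes gave no call by edgeR. Of 10 further gamma-chain and related subunits 6 were tested, 4 with a negative and 2 with a positive log2 fold change, and the median was −0.79 against 0.05 over all genes tested. The highest expressed were Il2rb, the interleukin-2 receptor beta chain, at 309.9 and 272.4 CPM for the WT-named pair against 544.1 and 185.2 CPM for the KO-named pair, and Il4ra, at 142.3 and 194.5 against 160.7 and 60.0 CPM. Il9r, the interleukin-9 receptor and named here after its values were seen, was at 128.1 and 173.4 CPM for the WT-named pair against 33.0 and 23.1 CPM for the KO-named pair, and did not overlap (log2 fold change −2.43, SE 0.85, edgeR adjusted p = 0.433). Interleukin-9 is a growth factor for ILC2. Of 9 other genes of the interleukin-1 receptor family 3 were tested, all 3 with a negative value and a median of −1.10. Of 4 other interleukin-17 receptors 1 was tested, Il17ra, at 36.9 and 68.9 CPM for the WT-named pair against 0.448 and 22.2 CPM for the KO-named pair (log2 fold change −2.22, SE 1.81, edgeR adjusted p = 0.819). Il17rd was at or below 0.598 CPM.

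Of 13 ligands 3 were tested, 2 with a negative and 1 with a positive value, and the median log2 fold change was −0.98. Il4, whose receptor uses the common gamma chain, was at 31.9 and 20.98 CPM for the WT-named pair against 127.3 and 172.4 CPM for the KO-named pair. Il2 was at 34.7 and 93.8 CPM against 20.8 and 30.5 CPM, so transcripts of both the ligand and its receptor chains were present in the libraries. Which cells held them was not tested. Il25 had no read in the WT-named and 1 read in each KO-named library, under the floor of 3 counts. Of 16 adaptors and kinases of the interleukin-1 and interleukin-17 receptors 14 were tested, 10 with a negative and 4 with a positive value, and the median was −0.39. The highest expressed were Peli1, a ubiquitin ligase, with both KO-named libraries (763.4 and 547.2 CPM) above both WT-named ones (341.1 and 543.7 CPM), though by a narrow margin, and Tab2, an adaptor of the kinase TAK1, at 125.3 to 309.5 CPM with overlapping groups. Irak3, an inhibitory kinase of this pathway, was too low for the edgeR filter but was called by DESeq2 (adjusted p = 0.0146). It had 258 counts in WT-named replicate 1, 3 in WT-named replicate 3 and 1 in each KO-named library, so that 1 library holds nearly all its reads.

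All 16 kinases, STATs and feedback genes of the gamma-chain and thymic stromal lymphopoietin receptors were tested, 8 in each direction, with a median log2 fold change of −0.098. Jak2, a kinase of the thymic stromal lymphopoietin receptor, was at 1705 and 1917 CPM for the WT-named pair against 2125 and 975.2 CPM for the KO-named pair. Socs2, a STAT5 target that dampens cytokine signals, was at 750.2 and 753.4 CPM against 1533 and 1250 CPM (log2 fold change 0.89, SE 0.35, edgeR adjusted p = 0.443). Ptpn6, the phosphatase SHP-1, had 621 and 227 counts in the WT-named pair and none in the KO-named pair, which is at least 213-fold lower against a floor of 3 counts over the group. That bound was 93.8-fold without KO-named replicate 3, 119.2-fold without KO-named replicate 1, and 123.7-fold without WT-named replicate 1. The bound covers counting error only. Counts could also differ widely within a group, as for Stat5a of this list, with 679 and 1 in the WT-named pair. Ptpn6 was the 1 gene of this list called by DESeq2 (adjusted p = 4.75e-05), which called 9.85% of all genes it tested. For Ptpn6 edgeR gave an adjusted p of 0.433. No gene of these 6 lists passed edgeR over all genes.

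The 3 receptors that varied most were compared with all other genes at a mean of at least 20 CPM by the root mean square distance between centred log2(CPM + 1) profiles over the 4 libraries. Nearest to Il1rap were BC003965, at a distance of 0.196, and Was, the actin regulator of blood cells, at 0.214. For Il18r1 they were Cnbd2 (0.125) and Ralgapa1 (0.125), and for Il2rg they were Cmip (0.0543) and Gosr2 (0.0656). The pool held 5115 genes, and with 4 libraries the likeness describes these libraries alone.

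Of the other cell types checked, basophil markers had 4 of 5 genes listed. Their summed level was 395.5 to 486.2 CPM for the WT-named pair against 271.7 to 325.2 CPM for the KO-named pair. Fcer1a, also a mast cell marker here, held 228.5 and 270.2 CPM of that sum in WT-named replicates 1 and 3. In KO-named replicates 1 and 3 it held 171.7 and 204.0 CPM. T cell markers had 4 of 12 listed, with most of the sum from Cd3g and Ikzf2. That sum was 336.2 to 349.7 CPM for the WT-named pair against 203.7 to 270.3 CPM for the KO-named pair. NK cell and ILC1 markers had 2 of 7 listed, Gzmb, at 84.7 to 178.4 CPM over the libraries, and Eomes, at most 0.149 CPM and at 0 in WT-named replicate 1. Macrophage markers had 2 of 7 listed, Cd68 and Adgre1, at a sum of 2.02 and 13.0 CPM for the WT-named pair against 29.3 and 32.7 CPM for the KO-named pair. Endothelial markers had 3 of 5 listed, at a sum of at most 2.07 CPM. The ILC3 and adipocyte markers were not analysed here. The part of these cells in the receptor values was not tested.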

How the data were processed

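RNA of sorted adipose ILC2 was extracted with Trizol and sequenced from Smart mRNA-seq libraries, as the labels' protocols state, and reads refer to mm10 per the submitters' processing notes. Strandedness, aligner, counter and annotation: not given in the sources used here. Estimated counts per gene were deposited by the authors, of which 20.0% to 21.6% in a library were not whole, and these were rounded. The authors also deposited p-values, q-values and log2 fold changes from DESeq2, per the file headers. Another 12 columns (TPM, FPKM and normalised counts) were not used. Columns numbered 3 could be tied to a group but to no sample, because the labels number the libraries 1 and 2. Nothing says that libraries are separate animals, and p-values therefore measure only how these samples differ, possibly for technical reasons.

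Counts were tested with the quasi-likelihood test of edgeR 4.0.16 (R 4.3.3), using TMM scaling, filterByExpr and Benjamini-Hochberg adjustment over all genes. DESeq2 1.42.0, limma-voom (limma 3.58.1), other scalings, no filter, a replicate block and leaving out each library were alternatives. An SE is the log2 fold change divided by the square root of F. A count of 0 allows up to 0.138 to 0.223 CPM, the level of 3 counts in a library (counting error only). The receptors, the 6 pathway lists and the 10 marker lists were chosen with earlier results of these data known, and the subunit ratios after the values were seen. Named genes are the receptors, Rptor, and from each pathway list those past an adjusted p of 0.05 by edgeR or, as none passed, the 2 highest expressed and any without a read in a group. Irak3, called by DESeq2 alone, Il9r, Zbtb16, Il5, Il13 and Stat5a were named after their values were seen. Each of the 3 receptors with the widest range also has its 2 most similar genes. Transcript lengths come from GENCODE, and positions and promoters from RefSeq GRCm38.p6, the assembly of mm10.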

Additional observations from a re-analysis of the deposited data

How the results depend on the processing

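Il17rb, Il1rap, Il7r, Il2ra and Il2rg kept their direction in all 18 alternative fits run. Over all genes DESeq2 called 952, limma-voom 201 and the fit with the replicate number as a block 25, where edgeR called 0. Leaving out WT-named replicates 1 and 3 and KO-named replicates 1 and 3 in turn gave 7, 4, 0 and 5 calls by edgeR, 694, 415, 987 and 1679 by DESeq2, and 258, 217, 0 and 0 by limma-voom. Whether equal numbers pair the libraries is not stated. The deviations of the WT-named and KO-named libraries numbered 1 had a correlation of −0.0071 over 8753 genes. With 2 libraries per group this cannot decide it. With the block no receptor passed. Il1rl1 turned to −0.29 with library size alone, −0.065 without a filter, −0.042 by limma-voom and −0.0065 with the block. It ranged from −0.39 to 0.37 by edgeR with 1 library left out. Without WT-named replicate 1 it was −0.0011 by edgeR, −0.12 by DESeq2 and −0.087 by limma-voom, and without KO-named replicate 1 it was −0.34 by DESeq2 and −0.39 by limma-voom. Il18r1 turned in the fits without KO-named replicate 1, at −0.14 by edgeR, −0.093 by DESeq2 and −0.073 by limma-voom, and its highest value with 1 library left out was 2.21 by edgeR and 2.28 by limma-voom. By DESeq2 Il1rap was −5.19 without KO-named replicate 1 and −2.87 without KO-named replicate 3, and Il2rg was −2.29 without KO-named replicate 3. With 1 library left out Il1rap ranged from −5.23 to −2.78 and Il2rg from −2.29 to −0.37 over the 3 tools. Fits that left a lone library in a group took its spread from the other group. With library size alone the median of all genes was −0.28, and the order of the 7 per length did not change with exon unions. Of the 6 most similar genes 4 remained at a mean of at least 50 CPM. DESeq2 and limma-voom with a library left out were chosen after seeing the data. The causes were not tested. Counts were few for Il1rap, at 20 in KO-named replicate 3, the deepest library, and for Il17ra, at 6 in KO-named replicate 1.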
